A study of Mus musculus with 48 samples.

Results

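The cytosolic ribosomal protein genes of mouse erythroid progenitors were described in single-cell RNA counts. The members were the rows of the count table whose symbol starts with Rpl or Rps and a digit, together with Rplp0, Rplp1, Rplp2 and Rpsa. Rows of the Rps6k kinases (10 rows) and rows named as pseudogenes (7 rows) were left out. The rule gave 87 of 24062 genes. Of these, 85 are ribosomal genes or their paralogs, 51 of the large and 34 of the small subunit. The other members, Rps19bp1 and Rpl7l1, fit the name pattern only: Rps19bp1 encodes a protein that binds Rps19, and Rpl7l1 encodes a nucleolar ribosome assembly factor.

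The ribosome is built from ribosomal RNA and one copy of most ribosomal proteins, so cells need the proteins of both subunits in matched amounts. Many of their mRNAs start with a cytosine and a run of pyrimidines, the 5′ terminal oligopyrimidine (TOP) tract, through which growth signalling by mTOR and Larp1 sets their translation. Erythroid progenitors are sensitive to a shortage of ribosomes: heterozygous loss of a ribosomal protein gene causes Diamond-Blackfan anemia in humans. Gata1, the main erythroid transcription factor, and Mpo, the myeloperoxidase of neutrophil granules, served as readouts of the erythroid and the myeloid program.

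The data were read counts of 48 single cells from mouse fetal liver at embryonic day 14.5, which the submitters call BFU-E (burst-forming unit, erythroid), an early progenitor of red blood cells. Per the labels, lineage-negative, c-Kit-positive cells were sorted for the lowest 10% of CD71, and full-length cDNA was made on a microfluidic chip without molecular identifiers. The labels give no strain, genotype, animal, litter, chip or treatment of these cells, and the table's columns match no sample title. All cells therefore stand for 1 sample, values are given as a description of these cells, and no test between groups was possible.

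The label was checked against markers of other cell types. The summed level of 12 erythroid markers ran from 11.3 to 8997 CPM (read counts scaled to a common library size, with TMM factors), with a median of 2115 CPM. Markers of neutrophils (8 genes) ran from 5.29 to 74988 CPM, with a median of 280 CPM, so some cells labelled BFU-E carried far more myeloid than erythroid transcripts. Other lists were present in part. Megakaryocyte markers summed to 0 to 2588 CPM with a median of 92.5 CPM, and mast cell and basophil markers to 0 to 2248 with a median of 174 CPM. Hepatoblast markers summed to 0 to 866 CPM with a median of 2.67 CPM, endothelial and stromal markers to 0 to 363 with a median of 0, and lymphoid markers to at most 4.86 CPM. Within these lists Prss34 (basophil), Ttr (hepatoblast), Col1a1 and Col3a1 (stromal) and Igll1 (lymphoid) had no read in the 46 cells. Another 2 cells had 25691 and 43143 CPM of the macrophage markers, against 0 to 1154 CPM elsewhere. These 2 macrophage-like cells were set apart, and results are for the other 46 cells unless stated. Total counts ran from 246007 to 3211186 per cell. No doublet caller was run, and 1 of the 46 cells held reads of both Xist and Y-linked genes.

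Start-site sequences of 8 members, whose values are described further on, show the pyrimidine tract where it is present and where it is not. Each is 30 bases of the RefSeq promoter table for GRCm38.p6 on the gene's strand, 10 before and 20 from the annotated start. Capitals mark the longest run of pyrimidines that starts with C within the window, if it has at least 7 bases.
Rps6 (chr4:86857348-86857377, minus strand): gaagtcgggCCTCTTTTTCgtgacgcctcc
Rps18 (chr17:33955646-33955675, minus strand): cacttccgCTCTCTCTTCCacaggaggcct
Rpl35 (chr2:39005112-39005141, minus strand): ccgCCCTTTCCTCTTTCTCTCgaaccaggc
Rps10 (chr17:27635225-27635254, minus strand): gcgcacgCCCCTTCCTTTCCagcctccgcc
Rpl15 (chr14:18270967-18270996, minus strand): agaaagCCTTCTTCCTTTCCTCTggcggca
Rpl28 (chr7:4792955-4792984, plus strand): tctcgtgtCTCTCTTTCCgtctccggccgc
Rpl22 (chr4:152325716-152325745, plus strand): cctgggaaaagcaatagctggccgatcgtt
Rpl22l1 (chr3:28805498-28805527, plus strand): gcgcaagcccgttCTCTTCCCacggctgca

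The table held an entry for 66 of the 87 members. A run of C and at least 4 further pyrimidines exactly at the annotated start was found in 14 of them (21.2%), against 3.01% of all 27025 symbols. A C-led run of at least 7 pyrimidines within 25 bases of the start on the gene's strand was found in 37 members (56.1%), against 25.6% of all symbols. The word CCGGAAG, the core of many ETS-family sites, was searched on both strands of the 300-base window from 250 before to 50 after the start. It was present in 26 members (39.4%) and in 9.93% of all symbols. Annotated starts may differ from the starts used in these cells, and a match is a description of the letters, not a binding site.

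Members took 7188213 of the 92990265 reads in all 48 cells. In the 46 cells their share of a cell's counts was 8.02% ± 1.66 (SD), with a lowest value of 5.77%, a median of 7.87% and a highest value of 13.8%. The middle of the distribution was narrow, with quartiles at 6.84% and 8.74%. The highest cell lay above the next at 11.6%, and its 95% Wilson interval of 13.7 to 13.8% covers counting error only. The 2 macrophage-like cells had the lowest shares of all 48, 2.99% and 3.38%, and with them the mean was 7.82% ± 1.90. The share had a Spearman rho of −0.11 with total count and −0.15 with the number of genes read, so deep and shallow cells were spread over its range. It moved with the share of counts of Rn45s, the ribosomal RNA precursor (rho 0.45), a value that also depends on how much ribosomal RNA entered the library.

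**Figure D1:**
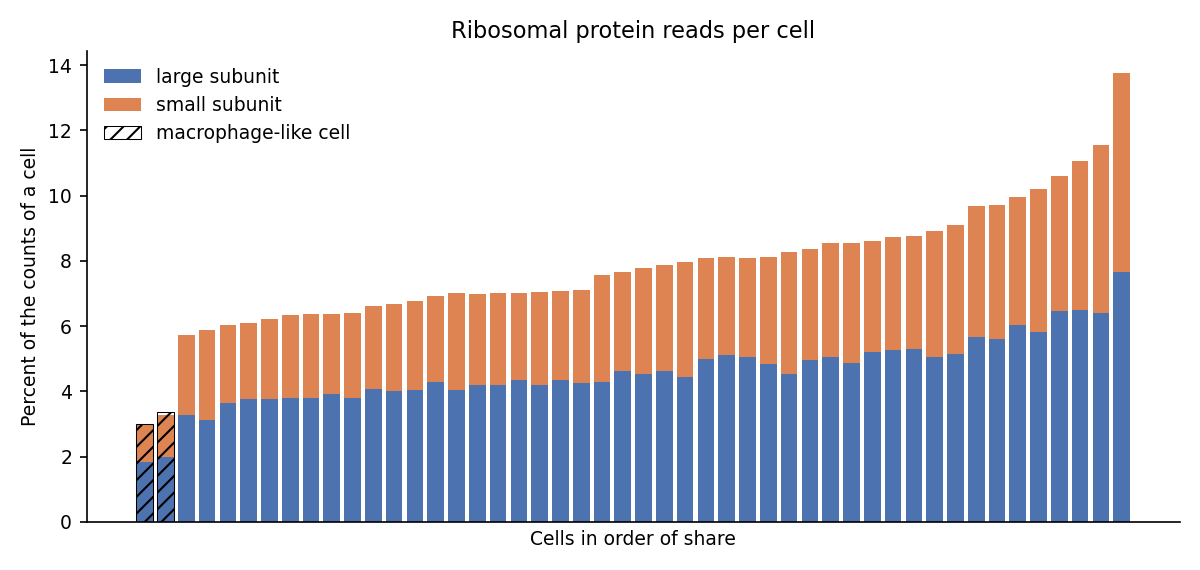
Percent of each cell's counts in ribosomal protein rows, 1 bar per cell in order of share, split into the large (blue) and small (orange) subunit; hatched bars are the 2 macrophage-like cells. The 46 other cells run from 5.77% to 13.8%, and both subunits grow along the order.

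The genes of both subunits moved together. Large-subunit genes took 4.72% ± 0.92 of counts and small-subunit genes 3.26% ± 0.77, and these shares had a rho of 0.91 across the 46 cells. The ratio of large to small ran from 1.14 to 1.71, a narrower range than the 2.39-fold range of the whole share. Every pair of the 80 members that passed the filter on low values (reads in 10 or more cells, at 5 CPM or more on average) was then compared across cells. The median pairwise rho was 0.37 for the members, 0.35 within the large and 0.42 within the small subunit. It was 0.014 over all 8482 genes that passed and 0.022 over 2126 other genes of at least 100 CPM. When each member was expressed as a percent of the ribosomal reads of its cell, the median pairwise rho was 0.012. On that scale the members of a cell have a fixed sum, so a rise of some goes with a fall of others. The low value thus follows in part from the scale, and no conclusion is drawn from it. The points share library, chemistry and depth in each cell, and the part of cell composition in this co-variation was not tested.

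Each member was also set against the share of all the other members. Of the 80 members, 68 had a rho of 0.3 or more, beside 4.19% of all genes with the ribosomal share, and 79 were above 0. Rpl41 (rho 0.85), which encodes a very small basic protein of the large subunit, followed the others most closely. It was followed by Rps26 (0.80), Rpl28 (0.79), Rps14 (0.75) and Rpl35 (0.73). The lowest was Rpl7l1 at −0.18, the only member below 0, and next was Rps19bp1 at 0.03, so the 2 rows that are not ribosomal proteins stood at the bottom of the order. Rpl36al (0.09), Rpl10 (0.11), Rps4l (0.13) and Rpl3 (0.16) were the lowest of the ribosomal genes. Rpl10 carries a late step of large-subunit joining, and Rpl3 lies near the peptidyl transferase centre.

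Detection was nearly complete for most members. Reads were present in all 46 cells for 77 members, where 4.79% of all genes and 41.2% of genes with a mean of at least 100 CPM were read in every cell. Including the macrophage-like cells, 76 members were read in all 48. The other 10 members were read in under 40 of the 46 cells, and 3 of them, Rpl3l, Rpl10l and Rps27rt, had no read at all. At 0 of 46 cells, a limit of 3 counts allows 6.52% of such cells to carry a read, and the Clopper-Pearson upper bound is 7.71%. Rpl3l is known from striated muscle and Rpl10l from testis.

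A further 4 members that encode core ribosomal proteins were nearly unread. Rpl26, a large-subunit protein that also binds p53 mRNA, had 4 reads, all in 1 of 46 cells (95% Clopper-Pearson interval of the share of cells 0.055 to 11.5%). Rps27 had 194 reads in 10 cells (interval 10.9 to 36.4%), with a highest value of 40.9 CPM. Rpl34 had 467 reads in 30 cells and ran from 0 to 23.9 CPM with a median of 2.13 CPM. Rpl30 had 548 reads in 37 cells and ran from 0 to 18.6 CPM with a median of 3.61 CPM. For comparison, the median over members of the mean level per kilobase of coding sequence was 1369 CPM, while these 4 genes had 0.089, 7.18, 13.1 and 15.6 CPM per kilobase.

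Copies of these genes elsewhere in the transcript annotation were counted. How reads that fit several places were treated is not given in the sources used here. In GENCODE M21 for GRCm38, 89.2% of the 50-base windows of the Rpl26 coding sequence had a copy with at most 2 mismatches in another gene. The value was 100% for Rps27, Rpl34 and Rpl30. It was 100% also for the highly read Rpl3, Rps6 and Rpsa, and 64 members had a copy of every window. Across 86 members the level per kilobase and the share of windows without a copy had a rho of −0.12. The part of such copies in the low counts of these 4 genes was not tested. In Rpl8, a highly read member, 90.3% of windows had no copy, and it ran from 690.0 to 2179 CPM with a median of 1067 CPM.

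Rps27 has a further difficulty, which its first 60 coding bases show. Capitals mark bases that differ from Rps27 in sequences from GENCODE M21, read 5′ to 3′ on the gene's strand.
Rps27 (chromosome 3, 90212522 to 90213651): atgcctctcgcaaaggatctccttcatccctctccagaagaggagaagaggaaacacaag
Rps27l (chromosome 9, 66946086 to 66949516): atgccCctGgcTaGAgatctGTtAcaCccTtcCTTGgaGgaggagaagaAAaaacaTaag
Rps27rt (chromosome 9, 114982366 to 114982739): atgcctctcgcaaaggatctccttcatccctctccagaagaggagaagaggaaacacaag
Rps27rt, a single-exon copy, was identical to Rps27 over all 252 coding bases, so a read that lies within the coding bases cannot be told apart between them. Bases outside the coding part were not compared, and the table gives 194 reads to Rps27 and 0 to Rps27rt. Rps27l, a p53-responsive paralog, differed at 18 of the 60 bases and shared 76.2% of its coding bases with Rps27. Rps27l was read in every cell, from 2.43 to 423 CPM with a median of 142 CPM. It held 99.1% ± 2.50 of the reads of the pair, a value that rests on the near absence of reads for Rps27.

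Levels were ranked between genes per kilobase of coding sequence. Rpl41 had the highest mean at 19919 ± 6174 CPM per kilobase, but its coding sequence has 75 bases of an annotated transcript of 582. Per kilobase of transcript its mean was 2567 CPM, and Rps18 had the highest value at 3211. Also high on the coding scale were Rpsa at 5020 ± 1911, Rps18 at 3943 ± 1282 and Rplp0 at 3908 ± 1298 CPM per kilobase. These 3 genes overlapped within their SD between cells. Without regard to length, the 10 most read members took 37% of all ribosomal reads.

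In the ribosomal stalk, which recruits the elongation factors, Rplp0 ran from 851 to 6846 CPM with a median of 3495 CPM, Rplp1 from 179 to 980 with a median of 400.0 CPM, and Rplp2 from 120 to 812 with a median of 204 CPM. Per kilobase of coding sequence their means were 3908, 1287 and 705 CPM, although the stalk holds more copies of Rplp1 and Rplp2 than of Rplp0. Rpl5 and Rpl11, which carry the 5S ribosomal RNA and bind Mdm2 when ribosome assembly fails, had medians of 2375 and 635 CPM. Rpl5 ran from 597 to 4068 CPM and Rpl11 from 194 to 1398 CPM. Among small-subunit members, Rps6, the target of the S6 kinases, ran from 708 to 3731 CPM with a median of 2112 CPM. Rps19, the gene most often mutated in Diamond-Blackfan anemia, ran from 603 to 2779 CPM with a median of 1354 CPM. Rps10, another gene of that anemia, ran from 120 to 713 CPM with a median of 308 CPM.

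The genes mutated in Diamond-Blackfan anemia formed a list of 22 members. Of these, 20 were read in every one of the 46 cells, and the exceptions were the nearly unread Rpl26 and Rps27. Of the 20 that passed the filter, 19 had a rho of 0.3 or more with the share of the other members, beside 4.19% of all genes and 68 of all 80 members. With Gata1, 3 of the 20 had one, beside 5.73% of all genes and 21 of all 80 members. Their median rho with the share was 0.42, beside 0.43 for all 80 members. Their median pairwise rho was 0.42, beside 0.37 for all 80 members.

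The spread between cells was set against a trend of the squared coefficient of variation (CV) on mean level over all 8482 genes. None of the 80 members was at 2 times the trend or above, beside 14% of all genes. Of the 80, 79 lay under the trend, beside 49% of all genes and 48% of genes of at least 100 CPM. The median ratio of a member's squared CV to the trend was 0.33, against 1.01 for all genes and 1.05 for other genes of at least 100 CPM, and 48 members fell in the lowest 10% of all genes. Rpl31 was the most even member against the trend, at a ratio of 0.07, and ran from 131 to 442 CPM with a median of 255 CPM.

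**Figure D2:**
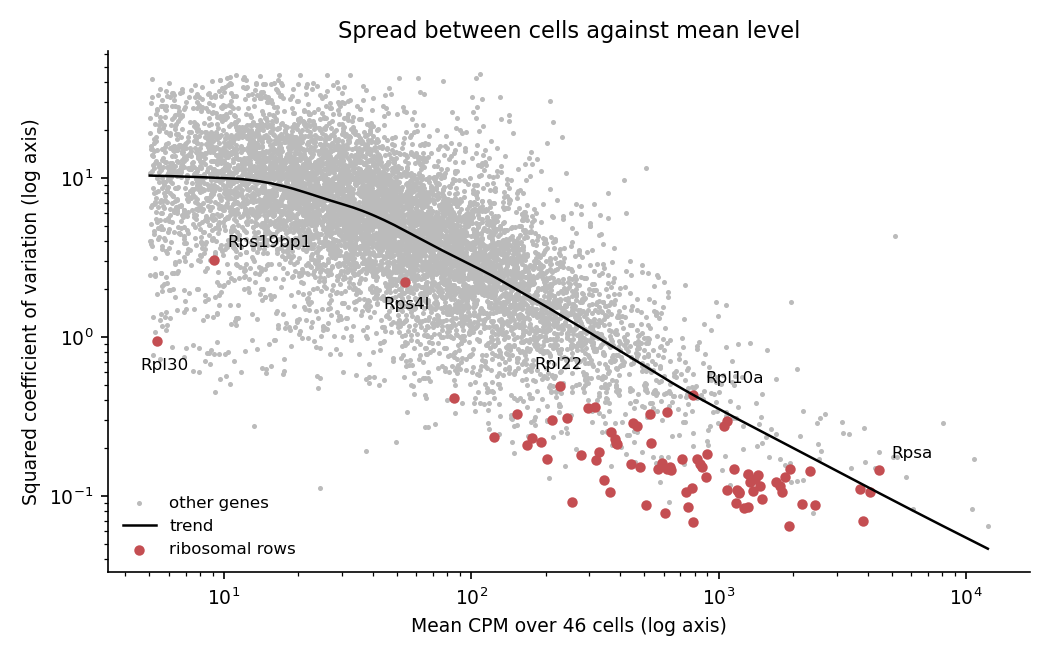
Squared coefficient of variation against mean CPM over 46 cells, 1 point per gene, both axes logarithmic; red points are the 80 members, grey points other genes, and the line is the trend over all genes. All members but Rpsa lie under the line.

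Rpsa, which encodes a small-subunit protein first described as a laminin receptor, was the member above the trend, at a ratio of 1.39. It ran from 1630 to 9534 CPM with a median of 3978 CPM, and the second highest cell had 8289 CPM. Rpl10a (0.99), Rpl4 (0.94), Rplp0 (0.92), Rps2 (0.89), Rps3 (0.72), Rpl12 (0.63) and Rpl7 (0.62) were among the 10 highest against the trend. Rpl10a ran from 263 to 3797 CPM with a median of 699 CPM, and its second highest cell had 1292 CPM, so its place rests on 1 cell.

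One cell held a ribosomal profile unlike the others. The order of the 80 members in a cell was compared with their mean over the other cells, and the rho had a median of 0.96. The most different cell had a rho of 0.48 and the next 0.65. That cell had 507732 counts, 30210 ribosomal reads and a share of 5.95%, next to the lowest of the 46 cells. The cell of the next lowest rho had 357378 counts, and the median of the 46 cells was 1915270.5. Both were thus shallow, while the shallowest cell, with 246007 counts, had a rho of 0.95. The part of depth in these profiles was not tested. The most different cell held the lowest value of 22 members and the highest of 13. Rpl29 had 11.4 CPM there (5 reads) against a median of 761, Rpl15 22.9 CPM (10 reads) against 1347, and Rpl24 16 CPM (7 reads) against 508 CPM. In the same cell Rpl10a stood 5.43-fold above its median, Rpl37a 4.17-fold and Rpl12 3.96-fold. High and low members came from both subunits. Leaving the cell out gave a mean share of 8.06% and a median pairwise rho of 0.39.

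**Figure D3:**
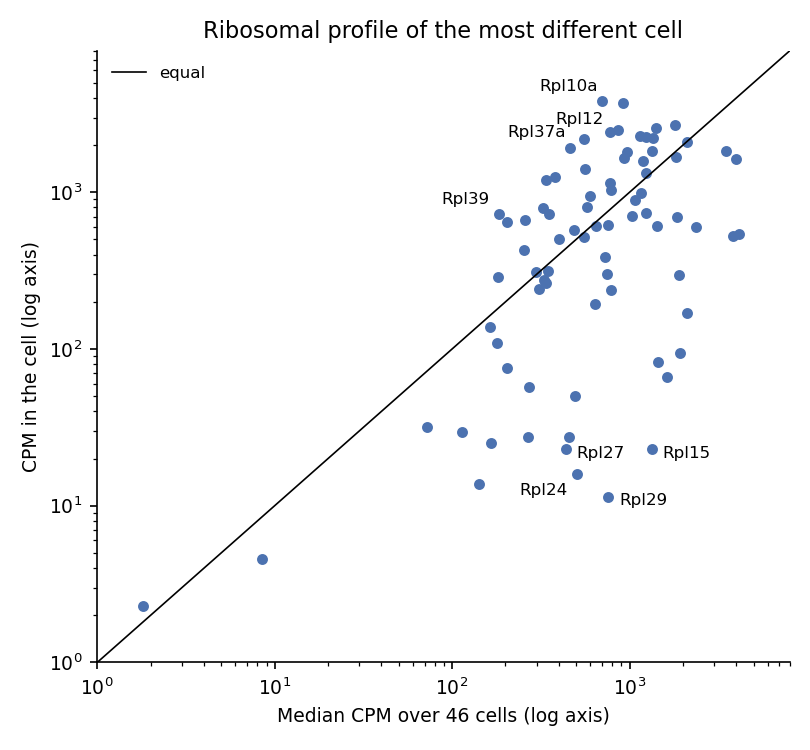
CPM of each member in the cell of most different profile against its median over 46 cells, both axes logarithmic; the line marks equal values, and Rpl30, at 0 in this cell, is not drawn. Rpl29, Rpl15 and Rpl24 lie far under the line, and Rpl10a, Rpl37a and Rpl12 above it.

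The cell of highest share was different in kind. It held the highest value of 37 of the 80 members, and its profile had a rho of 0.93 with the others. As a percent of ribosomal reads, Rps4l stood 12.6-fold above its median over the other cells, Rpl30 2.62-fold, Rpl27 2.19-fold, Rplp2 2.05-fold and Rps2 1.97-fold. Rps4l had 202 CPM there, against a median of 8.51 CPM and a highest value of 320 CPM in another cell. Rpl30 had 16.7 CPM there, against a median of 3.61 CPM. The folds of both genes rest on these low medians. Leaving the cell of highest share out gave a mean share of 7.89%.

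Among the ribosomal genes that passed the filter, the most uneven by its CV alone was Rps4l, a single-exon gene on chromosome 6 (148354656 to 148355598) that GENCODE lists as a processed transcript. It was read in 39 of 46 cells and ran from 0 to 320 CPM with a median of 8.51 CPM. In 7 cells it had no read, in 17 it had under 10 CPM, in 5 it had 10 to 50 CPM, and in 17 it had 50 CPM or more. Its squared CV was 2.21, under the trend for its low mean (ratio 0.47). Rps4x, its X-linked counterpart, was read in every cell, from 182 to 2853 CPM with a median of 1338 CPM. Rps4l held 4.05% ± 5.69 of the reads of the pair, from 0 to 23.8%, and more than 10% in 8 cells. The levels of the genes had a rho of −0.35 across the 46 cells. In the transcript annotation, 46.2% of the 50-base windows of Rps4l had a copy, most of them in the row named as its pseudogene.

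In 3 further pairs both genes were read in every cell. Shares of a pair are of reads, not of levels per length, since they serve to compare cells. Rpl36al, a single-exon copy of the X-linked Rpl36a, held 40.7% ± 14.2 of the reads of the pair, from 13.1 to 91.3% with a median of 39.5%, and had more reads than Rpl36a in 10 cells, without correction for length. The coding sequences agree at 87.7% of bases, and all 50-base windows of both have copies elsewhere. Rpl22l1 held 29.2% ± 12.4 of the reads of its pair with Rpl22, from 0.53 to 54.9% with a median of 29.3%, and had more reads than Rpl22 in 2 cells. Rpl22 binds the Epstein-Barr virus RNA and is known to hold down Rpl22l1 in mice. In these cells Rpl22 ran from 81.6 to 947 CPM with a median of 180 CPM, and Rpl22l1 from 1.21 to 314 with a median of 72.5 CPM. Their levels had a rho of 0.16. Their coding sequences agree at 68.2% of bases.

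Rpl7l1 held 16.7% ± 15.1 of the reads of its pair with Rpl7, from 2.70 to 87.7% with a median of 13.3%. Rpl7 ran from 85.1 to 3903 CPM with a median of 1924 CPM. The highest paralog shares, 87.7% for Rpl7l1 and 91.3% for Rpl36al, both came from the cell of most different profile. Without it the means were 15.1% and 39.5%. Rpl39l, known from testis and some stem cells, had 1 read in 1 cell against 17973 reads of Rpl39, and Rpl3l and Rpl10l had none against 349907 reads of Rpl3 and 112977 reads of Rpl10.

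**Figure D4:**
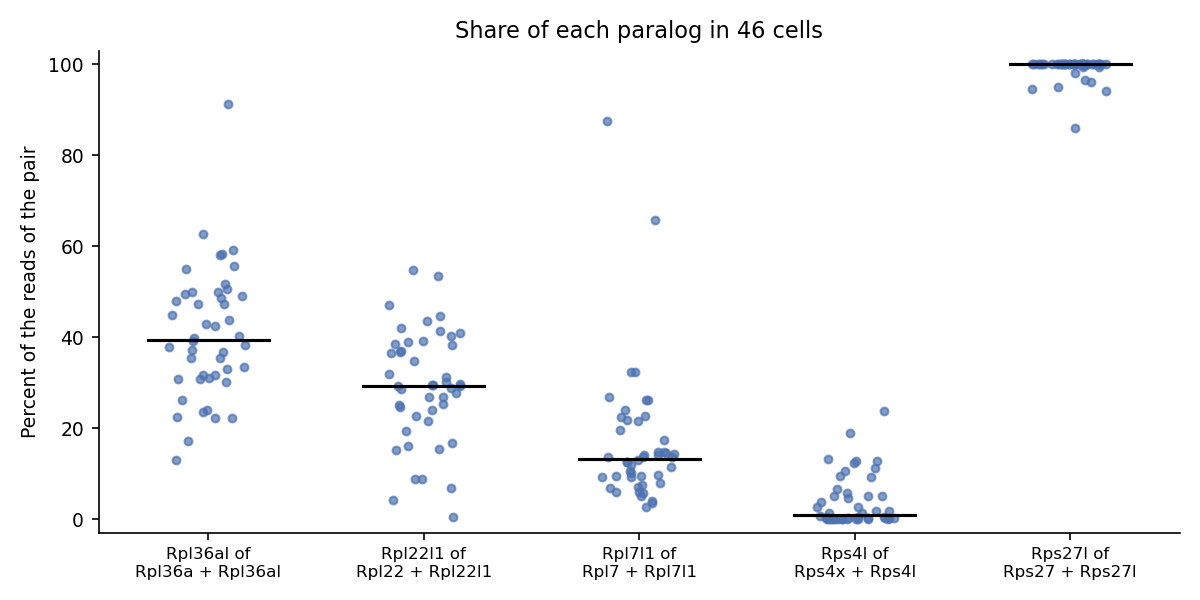
Percent of the reads of each pair that fell on the paralog, 1 point per cell in 46 cells, with the median as a line; points are spread sideways for visibility. Rpl36al and Rpl22l1 vary widely, Rpl7l1 and Rps4l are low in most cells, and Rps27l holds nearly all reads of its pair.

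The paralog shares did not follow the erythroid or myeloid readouts closely. The share of Rpl22l1 had a rho of −0.01 with Gata1 and −0.10 with Mpo, that of Rpl36al −0.09 and 0.19, that of Rpl7l1 0.17 and −0.09, and that of Rps4l 0.02 and −0.11. For Rps27l, whose partner was nearly unread, the values were −0.25 and 0.24.

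The ribosomal share was then set against Gata1 and Mpo. Gata1 ran from 0 to 1722 CPM with a median of 70.3 CPM, and 28 of the 46 cells had 10 CPM or more. Mpo ran from 1.32 to 53282 CPM with a median of 238 CPM. Gata1 and Mpo went in opposite directions across cells, with a rho of −0.61. The share had a rho of 0.43 with Gata1 (Pearson r 0.37 on log2(CPM + 1)) and of −0.31 with Mpo (r −0.22). With the macrophage-like cells included, the values in 48 cells were 0.44 and −0.21. The cell of lowest share had the highest Mpo. The cell of highest share had 259 CPM of Gata1 and 492 CPM of Mpo, and the next had no Gata1 read and 2077 CPM of Mpo, so the ends of the order did not all go 1 way.

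The relation was also taken within 2 sets of cells, split at 10 CPM of Gata1, a chosen limit and not a gap in the levels. In the 28 cells with 10 CPM or more, the share had a rho of 0.32 with Gata1 and 0.15 with Mpo. In the 18 cells under 10 CPM, where most values of Gata1 rest on few reads, the values were −0.34 and −0.21. The relation with Gata1 thus had the same sign as the pooled value in the high set and the opposite sign in the low set, and that with Mpo the opposite sign in the high set. Leaving out the 2 cells farthest from the median of Gata1 gave 0.59. Gata1 was read in 42 of the 46 cells, and the cells without a read tie as the farthest. Which 2 of them were left out was arbitrary, and their shares differ, so no conclusion is drawn from 0.59. Dropping the 5 shallowest cells gave 0.54.

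**Figure D5:**
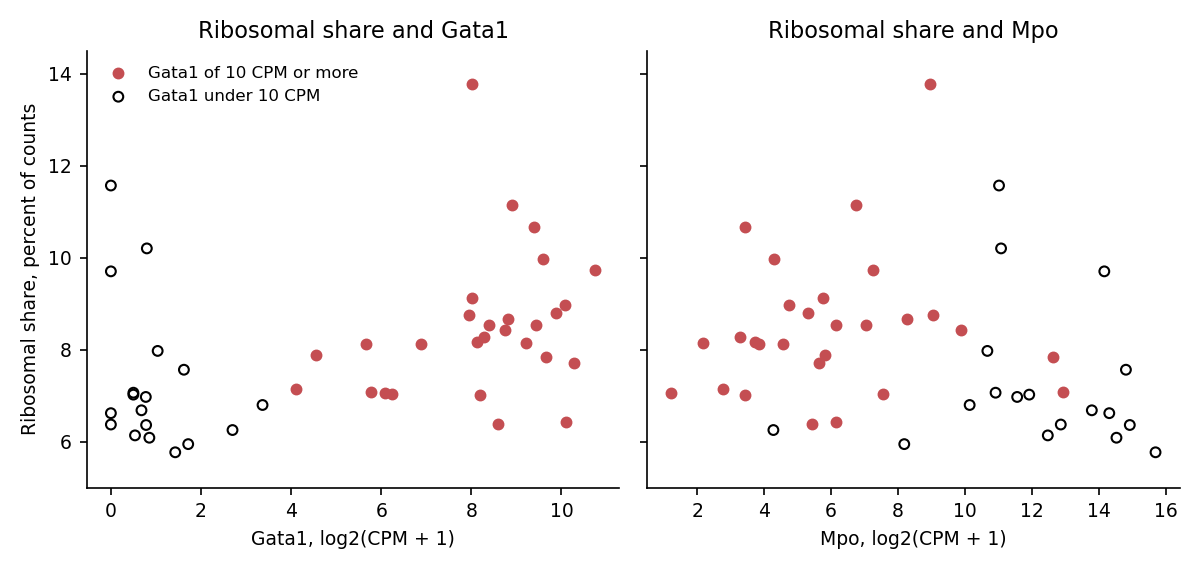
Ribosomal share in percent of counts against log2(CPM + 1) of Gata1 (left) and Mpo (right), 1 point per cell in 46 cells; red points have Gata1 of 10 CPM or more and open points less. Most of the lowest shares are open points with high Mpo, while 3 open points lie above 9% of counts.

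Marker sums were also set against the share. The erythroid list includes Gata1 and the neutrophil list Mpo, so their sums repeat part of the relations above. The erythroid sum had a rho of 0.46 with the share and the neutrophil sum −0.33. The macrophage sum had −0.41, over a range of 0 to 1154 CPM with a median of 2.49 CPM. The hepatoblast sum, with a median of 2.67 CPM, had −0.23. Both rest on few reads in many cells. The mast cell and basophil sum had 0.23, the megakaryocyte sum −0.13, the lymphoid sum −0.12 and the endothelial and stromal sum −0.13. The share of counts in 1560 other genes with a coding length of at most 450 bases was 7.41% ± 0.73 and had a rho of 0.34 with the ribosomal share, −0.18 with Gata1 and 0.41 with Mpo. With ranks adjusted for it, the ribosomal share had a rho of 0.53 with Gata1 and −0.53 with Mpo. The part of other transcripts or of transcript length in these relations was not tested beyond these values, and a larger ribosomal share cannot be told apart from a smaller share of other transcripts.

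Among single members, 21 of 80 had a rho of 0.3 or more with Gata1, beside 5.73% of all genes, and 0 had −0.3 or less, beside 5.49%. Rpl13a led at 0.49, followed by Rplp0 (0.44), Rpl28 (0.44), Rps2 (0.42), Rps21 (0.42) and Rpl21 (0.41). Among the 6 lowest were Rps27l (−0.05), Rps6 (0.01), Rps4l (0.02), Rpl3 (0.03) and Rpl9 (0.06). The median was 0.22 over the 80 members and 0.02 over all genes. Scaling mattered here. With DESeq2 size factors, the scaling of the authors' log2 table, 7 of 79 members reached 0.3, beside 4.63% of all genes, 61 were above 0 in place of 79 of 80, and the median was 0.11. As a percent of ribosomal reads, 6 of 80 reached 0.3 and the median was 0.03, with no share of all genes given on that scale. Because that scale fixes the sum of the members in each cell, the low median follows in part from the scale itself. In CPM without the 5 cells of lowest total count, 35 of 81 reached 0.3, beside 6.66% of all genes.

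With Mpo the members leaned the other way in sign. Of 80 members, 6 had a rho of −0.3 or less, a share close to the 5.21% of all genes. That count alone does not set the members apart. At 0.3 or more there were 0 members, beside 7.58% of all genes. Among the 6 were Rps13 (−0.35), Rps19bp1 (−0.33), Rps18 (−0.32), Rpl29 (−0.31) and Rplp1 (−0.31). Among the 6 highest were Rps6 (0.16), Rpl36al (0.14), Rpl23a (0.11) and Rps15a (0.11). In all, 64 members were below 0 and 16 above, and their median was −0.12. Over all 8481 genes the median was 0.0014. The count of 6 varied with the settings. It was 12 of 81 without the 5 cells of lowest total count, beside 7.07% of all genes there. On the Pearson scale it was 2, with no share of all genes given beside it.

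Other translation genes moved less with the share. In a list of elongation factors and other TOP mRNAs, 2 of 16 genes had a rho of 0.3 or more and none −0.3 or less. One of them was Fau (0.37), which encodes a ubiquitin-like fusion to a small-subunit protein and lies outside the name rule. Eef1a1, the main elongation factor, had a median of 12405 CPM and a rho of 0.21. Of 31 initiation factors, 2 had 0.3 or more, Eif4ebp1 (0.47), a repressor of cap-dependent translation, and Eif3i (0.46), and 1 had −0.3 or less, Eif2s2 (−0.36). Of 46 ribosome biogenesis genes, 2 had 0.3 or more, Nop10 (0.44) and Gnl3 (0.37), and 1 had −0.3 or less, Nolc1 (−0.38). The background was 4.19% at 0.3 or more and 4.26% at −0.3 or less.

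Mitochondrial ribosomal proteins, which form a separate ribosome, had 7 of 77 at 0.3 or more, led by Mrpl52 (0.52), and 1 at −0.3 or less, Mrps34 (−0.39). Their median pairwise rho was 0.07. Of 12 controllers of growth and ribosome stress, 1 reached 0.3, the kinase gene Rps6kb1 (0.34). Myc, which drives ribosome production, had a rho of −0.18, Mtor −0.23, Larp1 0.21 and Trp53 0.25.

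Genes outside the rule were ranked by their rho with the share. Among the 10 highest were Crip1 (0.74), the iron transporter gene Slc11a2 (0.55), Cox6c (0.54), Uqcr11 (0.54), Sepw1 (0.54), 2210016F16Rik (0.53), Mrpl52 (0.52), Tomm5 (0.52) and Gstp1 (0.50). Cox6c, Uqcr11, Tomm5 and Mrpl52 encode small mitochondrial proteins. Of 9 of the 10 with a coding length, 6 were at or under 450 bases, and their median was 363 bases. The lowest were Vps54 (−0.60), Kdm6a (−0.56), Pdp2 (−0.54), Nfic (−0.54), Plcg2 (−0.52), Tmbim1 (−0.52), Rab27a (−0.52), Zfp27 (−0.51), Rab31 (−0.50) and Calr (−0.50). Their median coding length was 1440 bases, and none was at or under 450. The median over genes outside the rule was 1350 bases, so the lowest genes were close to it in length. The share of all genes at or under 450 bases is not given here. Over 7862 genes outside the rule, coding length and rho with the share had a rho of −0.11, a weak relation across genes, which are not independent. Several of the named genes were near the floor. Zfp27 was read in 11 of the 46 cells, Nfic in 19, Tmbim1 in 20 and Vps54 in 22, each with a median of 0. The rho of these genes rests in part on ties among cells without a read. Pdp2, 2210016F16Rik and Slc11a2 had medians of 1.08, 0.71 and 2.69 CPM. Calr was read in all 46 cells, with a median of 389 CPM.

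Some members lie where another gene overlaps them. In 26 members, a small nucleolar RNA, a microRNA or a neighbouring gene of the table overlaps the gene in GENCODE, and the strand setting of the counting is not given in the sources used here. Reads of Rps18 and Vps52, of Rpl28 and Ube2s, or of Rpl35 and Arpc5l could not be told apart where they overlap if strand was not used.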

How the data were processed

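RNA of 48 single BFU-E cells was analysed from the table of read counts deposited by the authors, whose values are whole-number counts per gene. The submitters' processing notes name TopHat2 2.0.12, featureCounts 1.4.6 and mm10. Annotation, strand and the handling of reads with several positions are not given in the sources used here. The authors' deposited log2 table equals log2 of the count over a DESeq2 size factor plus 1, within 1e-06, and served as an alternative.

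CPM used TMM library sizes from edgeR 4.0.16. DESeq2 1.42.0 size factors, plain CPM, thinning to 246007 counts, other thresholds and sets of cells were alternatives. Genes needed a read in 10 cells and a mean of 5 CPM for the spread and correlation steps. The trend was a lowess fit with a fraction of 0.3 (statsmodels 0.14.6). Cells with at least 1000 CPM of C1qa, C1qb, C1qc and Timd4 were set apart. Correlations are Spearman's rho over 46 cells with no p-value, at a threshold of 0.3. Intervals cover counting error only, since no molecular identifiers mark the original molecules. Copies of coding windows of 50 bases were found with bwa 0.7.19 in GENCODE M21 transcripts. The calls by the rho threshold and by the ratio to the trend were tested on simulated counts. The other steps were not.

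Named members were the paralog pairs, the stalk, Rpl5, Rpl11, the anemia list, the 10 highest against the trend, those read in under 40 cells, the 6 highest and lowest with Gata1 and with Mpo, the 5 highest and lowest per length, and the 10 genes outside the rule at either end of the relation to the share. Members of the pathway lists were named beside their counts. Rpl8, Rps26, Rps14, Rpl31, Rpl24, Rpl37a and others named for the 2 unusual cells or as examples were chosen after their values were seen. The members and lists were chosen with earlier results of these data known. Rack1 (listed as Gnb2l1), Efl1 and Adgre1 had no row of that name. Some genes that these rules select are not reported here.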

Additional observations from a re-analysis of the deposited data

How the results depend on the processing

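The cells are 1 sample without named animals or batches, so the values describe these cells alone. No paired analysis was possible because there is only 1 group. Leaving mitochondrial genes out of the denominator was not run, since 0 rows of the table are named mt-. Alternatives that adjust for short genes, leave Rn45s out, or leave out the cell of highest share or of most different profile were added after seeing the data.

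The mean share stayed between 7.82% and 8.11% in 10 alternatives, and the members read in every cell between 75 and 77 in 6. The count of members above the spread limit stayed at 0 in 12. Among these 12 were limits of 1.5 and 3 times the trend in place of 2, and the 0 at 3 follows from the 0 at 2. The DESeq2 and log2 table alternatives are the same scaling, so the alternatives are not independent. The median pairwise rho of members was 0.0119 as a percent of ribosomal reads, a scale that fixes the sum of the members in each cell and so lowers this value by itself. Members at 0.3 or more with Gata1 numbered 35 without the 5 cells of lowest total count, beside 6.66% of all genes. They numbered 7 with DESeq2 size factors and 7 in the authors' log2 table, beside 4.63% of all genes. They numbered 6 as a percent of ribosomal reads, and 43 or 7 at a threshold of 0.2 or 0.4. Members at −0.3 or less with Mpo numbered 12 without those 5 cells, beside 7.07% of all genes, and 11 in plain CPM, beside 5.49%. They numbered 10 after thinning, 2 by Pearson's r with a pseudocount of 1 and 2 with one of 10. They numbered 2 as a percent of ribosomal reads, and 21 or 0 at a threshold of 0.2 or 0.4. As a percent of ribosomal reads, 3 members were at 0.3 or more with Mpo. Where no share of all genes stands beside a count, the count alone does not set the members apart from other genes.

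The share and Gata1 had a rho of 0.536 without the 5 cells and 0.531 after adjustment for short genes. It was 0.315 and −0.344 in cells with Gata1 of at least and under 10 CPM. Without the 2 cells farthest from the median it was 0.594, a value that depends on an arbitrary pick among tied cells without a Gata1 read. For Mpo the values were −0.213 in all 48 cells, 0.146 and −0.214 in the same sets by Gata1, and −0.530 after adjustment. The share of Rpl39l in its pair was 0.104% after thinning, where single reads decide it. The causes of these changes were not tested. Depth limits the members with few reads: at 246007 counts, 1 read is about 4 CPM before TMM scaling.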
